A study of Mus musculus with 2 samples.

Results

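Melanoblasts are the unpigmented or lightly pigmented precursors of melanocytes. A gate for them took 61 of the 11893 barcodes that passed filters in single-cell libraries of the e13.5 mouse eye cup. A barcode, which stands for 1 captured cell, was taken as a melanoblast when it had at least 200 detected genes and at most 15% of its UMIs (unique molecular identifiers, each counting 1 captured transcript) from mitochondrial genes, and held at least 1 UMI in 2 or more genes of each of 2 panels. The pigment panel was *Mlana*, *Tyr*, *Trpm1*, *Dct* and *Slc45a2*, and the crest panel was *Sox10*, *Pax3*, *Kit*, *Erbb3* and *Cdh19*. These 10 genes chose the cells, so their levels are a description only. The word melanoblast below means a barcode of this gate, and not every one need be a melanoblast. In control, 2 carried *Otx2*, a factor of the optic cup and the retinal pigment epithelium, and no *Pax3*. The control library was *Myrf fl/fl* and gave 35 melanoblasts of 5519 passing barcodes, and the mutant library was *Rx>cre Myrf fl/fl* and gave 26 of 6374.

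Both libraries were made from e13.5 eyes without cornea, lens and optic nerve, and each came from 3 samples of 1 genotype pooled before dissociation. Both genotypes carried the floxed *Myrf* alleles, and the mutants also carried the *Rx>cre* transgene, which is active in the early eye field that forms the retina and the retinal pigment epithelium (RPE). Each genotype was read once, which leaves nothing to test against, and every interval below is an exact 95% interval that covers counting error only.

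Neural crest cells leave the dorsal neural tube and give rise to melanoblasts, either directly or through Schwann cell precursors along nerves. The transcription factors Sox10 and Pax3 act on *Mitf*, the master regulator of the pigment cell, and the receptors Kit and Ednrb carry survival and migration signals. The RPE makes melanin with many of the same enzymes, but it is an epithelium derived from the optic cup under Otx2 and Mitf. The study nonetheless reports Sox10, a crest panel gene here, in control RPE at e13.5 and its loss in mutant RPE.

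Several pigment genes used in the gate or on the melanosome list hold the E-box letters CATGTG or CACGTG, which Mitf and related factors can bind, in the 250 bases before to 50 bases after a RefSeq gene start (GRCm38.p6). The windows of 6 such genes are shown because they cover both enzymes shared with the RPE and genes that separated the 2 pigment cells below; capitals mark the E-box, and each line runs 5′ to 3′ on the strand of the gene.
Dct: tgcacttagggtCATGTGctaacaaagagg
Tyr: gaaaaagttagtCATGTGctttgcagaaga
Trpm1: ccaaatcctcatCATGTGcccaccccaaac
Tyrp1: tggggagggagtCATGTGctgcctagtagt
Oca2: ttgagcttgctaCACATGgctggaattttc
Mlph: tcaggagtagccCACGTGatctgagccgca

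The *Dct* window lies at chr14:118052379-118052408 on the minus strand, with the E-box at position -150 from the gene start. That of *Tyr* is chr7:87493516-87493545, minus strand, at -21, and that of *Trpm1* is chr7:64153682-64153711, plus strand, at -141. *Tyrp1* has its window at chr4:80834155-80834184, plus strand, at -46. *Oca2* holds the letters as their reverse complement at chr7:56239561-56239590, plus strand, at -186. *Mlph* holds CACGTG at chr1:90915040-90915069, plus strand, at -48. Both strands were searched and a gene was counted once however many matches overlapped. CATGTG was found in 3 of the 3 pigment panel genes that had a window and in 4 of 16 melanosome genes, against 15.9% of 27025 genes. CACGTG was found in 5 of 16 melanosome genes against 8.09% of all genes. Of the genes used below to set the RPE class, 5 had a window. CATGTG was in 2 of these 5, *Otx2* and *Rlbp1*, and CACGTG in 0. *Pmel*, *Mlana*, *Slc45a2*, *Gpr143*, *Rab38* and *Sytl2* had no window. A match describes the letters and is not a measured binding site.

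The 2 libraries held 62720439 and 74669801 UMIs over passing barcodes, with medians of 11377 and 11178.5 UMIs a barcode in control and mutant. They shared 67 barcode sequences, none of them a melanoblast. Scrublet, which scores each barcode against simulated doublets, marked 0.924% and 1.16% of the barcodes and no melanoblast. *Myrf*, the targeted gene, was at 53.5 CPM (UMIs of the gene per 1000000 UMIs of the class) in the control RPE and at 16.4 CPM in the mutant RPE. The exons removed are not given in the sources used here, so a 3′ count of *Myrf* does not on its own check excision.

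Melanoblasts were 0.634% of control barcodes (0.442 to 0.881) and 0.408% of mutant barcodes (0.267 to 0.597). The intervals overlap. The melanoblasts were deep cells, with medians of 23901 UMIs (1246 to 48293) and 4593 genes in control and of 27364 UMIs (14079 to 42976) and 4650 genes in mutant. A gate on detected UMIs favors deep barcodes. When barcodes were thinned to 3000 UMIs before gating, and shallower ones left out, the shares were 0.334% (14 of 4186) and 0.139% (7 of 5053). Each pool held both sexes, since 17 control and 13 mutant melanoblasts had *Xist* UMIs without Y-linked ones and 11 and 10 had the opposite.

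Most melanoblasts lay well inside the gate. At least 3 genes of each panel were present in 27 of 35 control and 23 of 26 mutant melanoblasts, and 1 control cell had exactly 2 of each. Just outside the gate, 28 control and 12 mutant barcodes had at least 2 pigment genes and 1 crest gene, and of these 24 and 6 carried *Otx2*, the optic cup and RPE factor, and none carried *Pax3*. On the other side, 9 and 8 barcodes had 1 pigment gene and at least 2 crest genes, none with *Otx2*, and 3 and 2 of them with *Pax3*. Barcodes with *Otx2* thus came close to the gate on the crest side. In the RPE class set below, without thinning, *Sox10* was in 5.21% of control and 0% of mutant barcodes. There *Kit* was in 6.16% and 7.55%, and both genes count toward the gate.

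A set of 6 melanoblasts stood apart from the rest. Some results below are given with and without them, and the others include them. Without them the melanoblast shares were 0.580% in control and 0.361% in mutant. Against the RPE class set below, 137 genes were then higher and 460 lower. In control, 2 carried *Otx2* with 160 *Ttr*, 97 *Krt18* and 26 *Rlbp1* UMIs between them, all transcripts of the RPE, and with no *Ednrb*. The remaining control cell had only 1246 UMIs. In mutant, 1 lacked *Dct*, and 2 carried haemoglobin at 13.8% and 46.8% of their UMIs. The cell without *Dct* also had no *Tyr*, *Pax3*, *Kit* or *Mitf* UMI. It held 2 *Pmel*, 10 *Sox10* and 3 *Erbb3* UMIs, and so had little of the pigment set. The remaining 32 control and 23 mutant cells, 55 in all, are called the typical melanoblasts.

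Most lists of markers of other cell types were lower in melanoblasts than in the rest of the eye cup. The macrophage and mast cell list gave 7 UMIs in control and 4 in mutant melanoblasts, and *Cpa3* and *Mcpt4*, which define mast cells, another *Kit*-positive and *Mitf*-positive cell, were at 0. Endothelial markers gave 2 UMIs and 1 UMI, and 8 genes of retinal progenitors and neurons summed to 237 and 213 CPM against 2533 and 2346 CPM in all other barcodes. The 8 periocular mesenchyme genes summed to 66.0 CPM and 101 CPM against 1104 and 1072 CPM in all other barcodes, and 1 mutant cell held 52 of 69 UMIs. The surface ectoderm and lens list gave 11 UMIs in control, 6.48 to 23.2 CPM by its counting interval against 38.8 CPM in all other barcodes. In mutant it was at 42.6 CPM against 25.9 CPM, with 26 of 29 UMIs in 1 cell. The Schwann precursor and crest glia list, which holds the melanoblast gene *Ednrb*, was higher in melanoblasts, at 1194 and 1169.7 CPM against 249.8 and 250.1 CPM. The 40 *Hox* genes, which mark crest of the trunk and hindbrain, gave 0 UMIs in control and 1 UMI in mutant melanoblasts. At 3 UMIs the floor was 3.54 and 4.41 CPM, above the 1.24 and 0.757 CPM of all other barcodes, so a difference in *Hox* level was not detectable at this depth. The position of a cell in or around the eye was not measured.

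The genes of the gate set the frame for the rest. *Dct*, the dopachrome tautomerase of melanin synthesis (chr14:118012790-118052244 in GRCm38), was found in 35 of 35 control cells with a median of 118 UMIs and in 25 of 26 mutant cells with a median of 94.5. *Tyr*, tyrosinase, was found in 33 of 35 and 25 of 26, while *Mlana*, a melanosome protein, was in only 15 of 35 and 10 of 26 and the channel gene *Trpm1* in 14 of 35 and 9 of 26. On the crest side *Sox10* (chr15:79154908-79165240) was in 34 of 35 and 26 of 26, *Kit* in 32 and 22, and *Pax3* in 30 and 22. *Erbb3*, the neuregulin receptor, was in 30 and 20 and the cadherin gene *Cdh19* in 18 and 14. Of the 5 label markers, *Mlana* was thus missing from most melanoblasts, and the other 4 were in most.

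**Figure D1:**
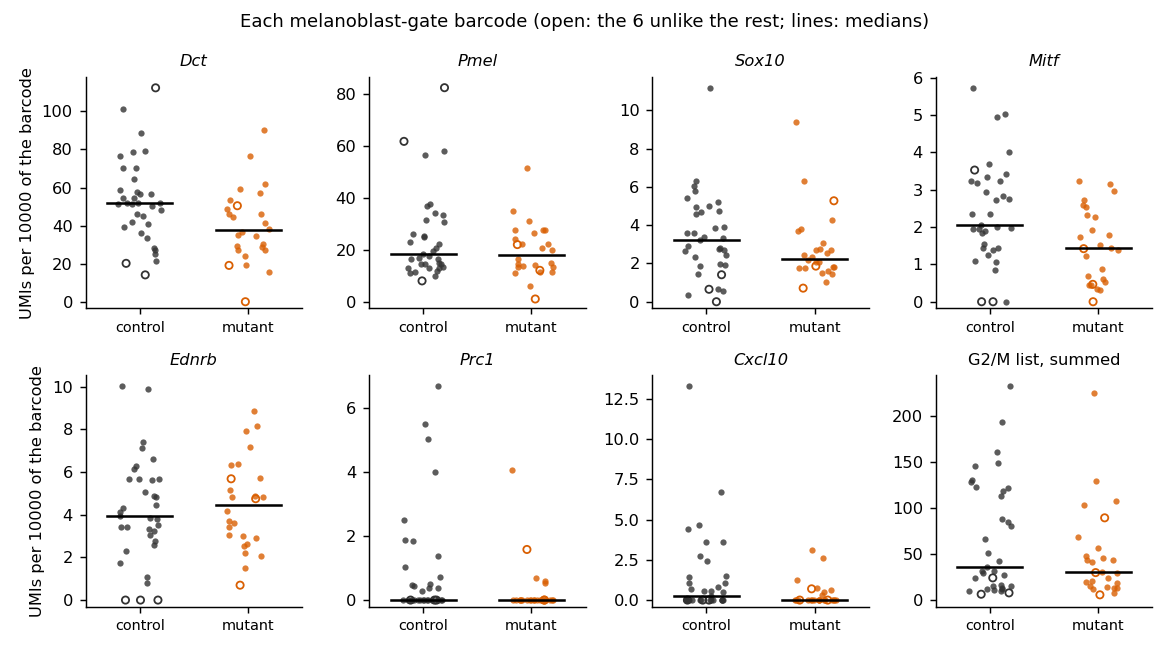
Each point is 1 melanoblast, with UMIs per 10000 UMIs of that barcode on the vertical axis and the library on the horizontal axis; lines are medians and open circles the 6 cells that stood apart. *Dct* had medians of 51.7 in control and 37.5 in mutant, and *Ednrb* of 3.94 and 4.47, with ranges that overlap in every panel.

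Genes that the gate did not use described the same cells. *Ednrb*, the endothelin receptor of melanoblasts, had UMIs in 32 of 35 control and 26 of 26 mutant melanoblasts, and *Mitf* in 32 of 35 and 25 of 26. *Pmel*, the fibril protein of the early melanosome, was in all 61, at a median of 18.5 UMIs per 10000 (8.03 to 82.5) in control and 18.1 (1.06 to 51.4) in mutant. *Syt4*, a synaptotagmin, was in 33 of 35 and 23 of 26.

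At a depth fixed at 3000 UMIs, which left out 1 control melanoblast, *Ednrb* was detected in 67.6% of control and 69.2% of mutant melanoblasts and in 0.546% and 0% of red blood cells, a class that should lack it. Unthinned, these shares were 91.4% and 100% at median depths of 23901 and 27364 UMIs, and 0.980% and 0.417% in red blood cells at 22891.5 and 22922.5. *Syt4* was detected at 3000 UMIs in 73.5% and 65.4% of melanoblasts, in no red blood cell and in no RPE barcode. *Mitf* was at 55.9% and 38.5% of melanoblasts and 26.9% and 26.3% of RPE barcodes, with none in red blood cells. The shares in red blood cells, a measure of background counts in cells that should lack these genes, were below those in melanoblasts for all 3 genes.

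The RPE was the other pigmented class and the main comparison. It was set as passing barcodes with at least 2 pigment panel genes, at least 2 of *Otx2*, *Rlbp1*, *Ttr*, *Rdh5*, *Lhx2* and *Six3*, and fewer than 2 crest panel genes, which gave 211 control and 106 mutant barcodes with medians of 13699 and 15878 UMIs. UMIs were summed over each class in each library, and a gene was called when the classes differed at least 4-fold in the same direction in both libraries. Of 8411 genes with enough UMIs, 135 were called higher in melanoblasts (1.61%) and 425 lower (5.05%). The median log2 ratio over all genes was -0.01 in control and -0.07 in mutant.

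**Figure D2:**
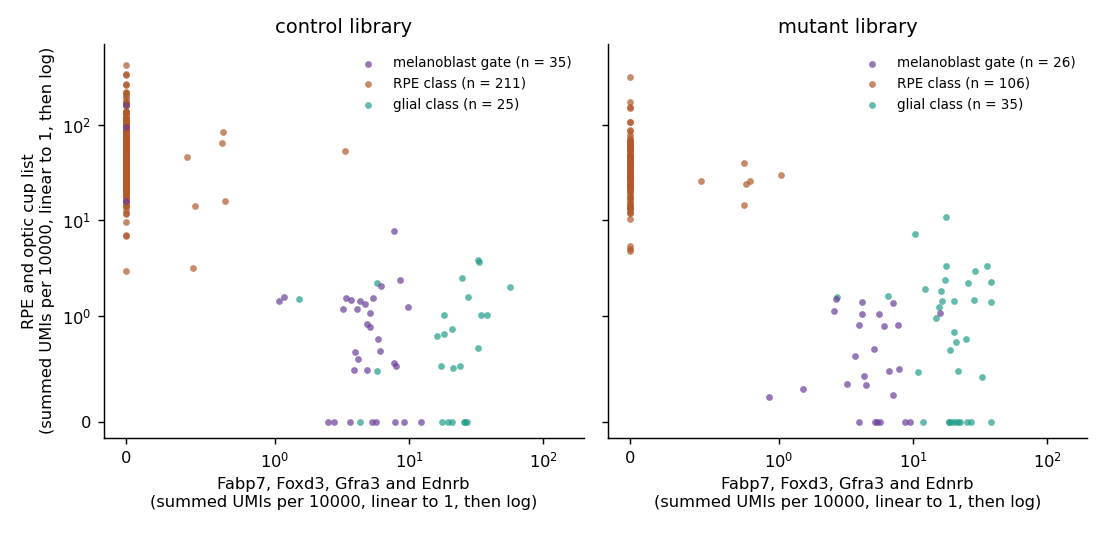
Each point is 1 barcode, with the sum of *Fabp7*, *Foxd3*, *Gfra3* and *Ednrb* on the horizontal axis and the RPE and optic cup list on the vertical axis, in UMIs per 10000 of the barcode, for melanoblasts, RPE and crest glia in each library. Melanoblasts lie low on the RPE axis, with medians of 0.918 in control and 0.486 in mutant against 51.6 and 31.9 in the RPE, apart from 3 control cells that lie among the RPE. Of these 3, 2 carried *Otx2*. The third had only 1246 UMIs in all and no *Otx2*, *Rlbp1*, *Ttr* or *Krt18* UMI, so few UMIs set its place. In mutant, the melanoblast without *Dct* lies at 15.8 on the horizontal axis, within the range of the glia.

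Of the 20 melanosome and melanin genes, 17 had enough UMIs, and 1 was called higher and 2 lower in melanoblasts, with medians of -0.50 and -0.34. *Mlph*, melanophilin, which links melanosomes to the motor protein of *Myo5a*, was the one that was higher, at 136 CPM (112 to 163) in control and 79.4 CPM (59.6 to 104) in mutant melanoblasts against 13.9 and 10.1 CPM in the RPE. *Tyrp1*, tyrosinase-related protein 1, had the largest ratio of the 17. It held 13 UMIs in 2 control melanoblasts and 0 in the mutant ones, against 637 and 336 UMIs in the RPE, so in mutant it was at least 43.0-fold lower in melanoblasts. The 2 control cells that held *Tyrp1* were those with *Otx2*. In mutant, 0 of 26 melanoblasts had a *Tyrp1* UMI, which allows a share of cells with a UMI of up to 13.2%. *Tyrp1* was in 132 of 211 and 74 of 106 RPE barcodes. *Oca2*, a melanosome anion channel gene, had 12 UMIs in 2 control and 1 UMI in 1 mutant melanoblast, against 105 and 94.7 CPM in the RPE.

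The other melanosome genes named here were within 4-fold. Of the gate genes, *Trpm1* was at 46.0 and 17.6 CPM in melanoblasts against 1031 and 1119.7 CPM in the RPE, and *Mlana* at 82.6 and 55.8 against 442 and 414 CPM, both called lower. *Pmel* was at 2196 and 1897 CPM in melanoblasts and 4675 and 4008 CPM in the RPE, a log2 ratio of -1.09 and -1.08. *Pmel* overlaps *Cdk2* and *Dgka* on the opposite strand, and whether counting used strand is not given in the sources used here. *Slc24a5*, a melanosome cation exchanger gene that overlaps *Myef2* in the same way, was at 259 and 212 CPM against 380 and 269.5 CPM, and *Gpnmb*, a melanosome glycoprotein, at 153 and 107 against 305 and 182 CPM. *Rab38*, which sorts melanin enzymes, was at 189 and 181 against 164 and 165 CPM. These 4 genes were thus within 4-fold between the classes, and *Tyrp1*, *Oca2*, *Trpm1* and *Mlana* were not.

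**Figure D3:**
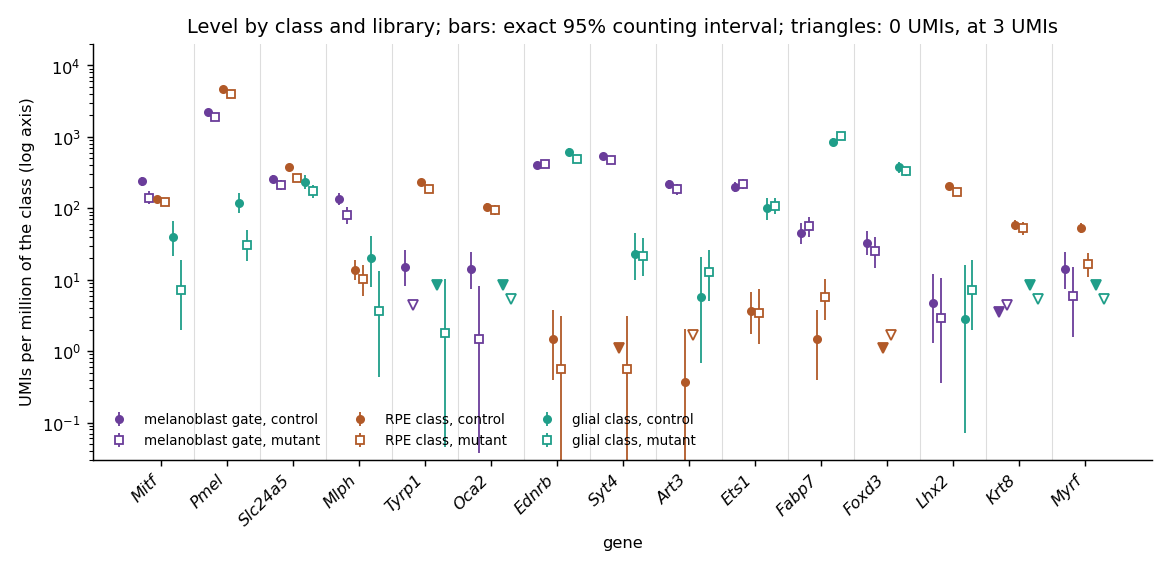
Level of 15 genes in CPM (log axis) in melanoblasts, RPE and crest glia of each library (filled, control; open, mutant); bars are exact 95% counting intervals and triangles stand at 3 UMIs for classes with 0. *Tyrp1*, *Oca2*, *Lhx2* and *Krt8* are high in the RPE, *Fabp7* and *Foxd3* in the glia, and *Syt4*, *Art3* and *Mlph* in melanoblasts.

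Among 17 lineage transcription factors, 10 had enough UMIs, and 4 were called higher and 1 lower, with a median of 1.80 in both libraries. *Ets1*, a factor of cranial crest, was at 198 (169 to 230.5) and 220.4 (187 to 259) CPM against 3.66 and 3.38 CPM in the RPE. *Tfap2a*, which acts with Mitf on pigment genes, was at 83.7 and 82.3 against 0.733 and 1.69 CPM. *Sox5*, a modulator of Sox10, was at 49.5 and 39.7 against 5.50 and 9.58 CPM, and *Tbx2*, a T-box repressor, at 149 and 85.2 against 15.8 and 6.20 CPM. *Sox9* was the one called lower, at 11.8 and 4.41 against 105 and 66.5 CPM. *Mitf* (chr6:97807052-98021349) was not called, at 239 (208 to 275) and 141 (114 to 172) CPM against 135 and 122 CPM. *Foxd3*, a repressor of the pigment fate in crest, had 28 and 17 UMIs and none in the RPE. *Irf4* and *Tfec* had no UMI in melanoblasts.

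*Ednrb* (chr14:103814625-103844402) led the receptors, with 340 UMIs in control and 282 in mutant melanoblasts and 4 UMIs and 1 UMI in the RPE. Its log2 ratios were 7.78 (6.73 to 9.98) and 8.53 (7.03 to 14.83). *Dusp6*, a target and brake of MAP kinase signaling, was the other receptor or signaling gene called higher of 7 measured, at 40.1 and 45.6 against 3.30 and 3.38 CPM. *Mc1r*, the melanocortin receptor of mature melanocytes, was low, with 6 UMIs in 2 control and 11 UMIs in 6 mutant melanoblasts. *Mc1r* lies inside the span of *Gm20388* on the same strand. How reads that fit both genes were counted is not given in the sources used here, so its count may be too low.

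Of 14 measured adhesion and migration genes, 3 were called higher and 2 lower, with medians of 0.74 and 0.91. *Itga4*, an integrin subunit for fibronectin, was at 283 and 163 CPM against 3.30 and 0.564 CPM. *Itga4* overlaps *Cerkl* on the opposite strand. *Mcam*, a melanoma cell adhesion molecule, was at 53.1 and 44.1 against 1.47 and 1.69 CPM, and *Fscn1*, an actin bundler of filopodia, at 377 and 348 against 93.8 and 80.1 CPM. *Cdh1*, E-cadherin, which melanoblasts raise on entering epidermis, gave 8 and 4 UMIs. The lower genes were the cadherins *Cdh3* and *Cdh11*.

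The RPE and optic cup list was the clearest contrast, with 17 of 19 measured genes lower and none higher in melanoblasts, at medians of -3.96 and -5.27 (mutant -5.26 with zeros set at their bound). Part of that list set the RPE class. Of genes that did not, *Krt8*, a keratin of simple epithelia, had 0 UMIs in melanoblasts and 159 and 93 in the RPE, at least 16.5-fold and 11.9-fold lower. *Vax2*, a ventral optic cup factor, had 0 against 180 and 113 UMIs, at least 18.6-fold and 14.5-fold lower. *Myrf* (chr19:10208272-10240748) was in 7 of 35 control and 4 of 26 mutant melanoblasts, at 14.2 (7.31 to 24.7) and 5.88 (1.60 to 15.1) CPM. Among typical melanoblasts it was at 6.12 and 6.62 CPM, in 5 of 32 and 4 of 23 cells. *Tmem98*, which encodes a partner of the Myrf protein, was at 46.0 and 32.3 CPM against 102 and 53.0 CPM in the RPE.

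The study's list of 44 predicted Sox10 regulon genes, chosen by the study on RPE cells of its libraries, is no independent evidence of direction. Of 24 measured genes, 3 were called higher in melanoblasts (*Sox10* itself, *Rasgrp3* and *Dusp4*) and 11 lower, with medians of -2.10 and -1.97. *Rasgrp3*, a Ras exchange factor, had 58 and 45 UMIs in melanoblasts and none in the RPE, at least 62.2-fold and 39.1-fold higher. *Dusp4*, another MAP kinase phosphatase, had 41 and 34 UMIs against 7 and 2. The 11 lower genes included the retinoid genes *Rlbp1*, *Rdh5* and *Rdh10*. *Sox10* helped to choose the melanoblasts, and *Rlbp1* and *Rdh5* the RPE class, so these directions were partly set by the choice of cells.

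**Figure D4:**
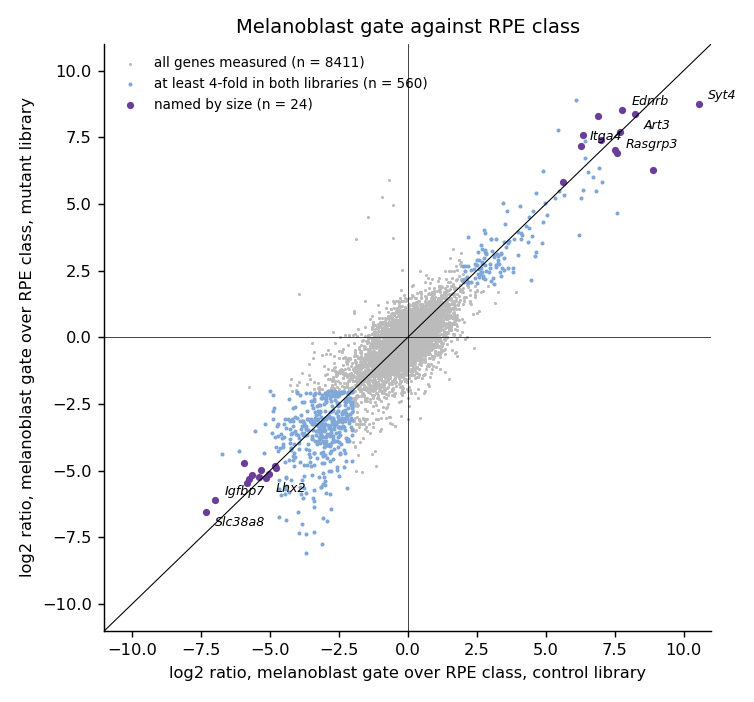
Each point is 1 of 8411 genes, with the log2 ratio of melanoblasts over RPE in the control library on the horizontal axis and in the mutant library on the vertical axis; 560 genes passed 4-fold in both and the 24 named by size are marked. *Syt4*, *Art3* and *Ednrb* lie at the top right, and *Slc38a8* and *Igfbp7* at the bottom left.

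Ranked by size, the genes highest in melanoblasts over the RPE went beyond the lists. *Syt4* led in control, with 462 UMIs against 0, at least 496-fold higher, and in mutant it had 327 UMIs against 1, a log2 ratio of 8.74 (7.25 to 15.04). *Art3*, an ADP-ribosyltransferase family gene, had 185 against 1 and 126 against 0 UMIs, and was in 32 of 35 and 26 of 26 melanoblasts. *Col14a1*, a collagen, was at 376 and 354 CPM, and *Insc*, a spindle orientation adaptor, at 173 and 175 CPM. *Phyhipl* was at 267 and 213 CPM, *Klhl30* had 78 and 64 UMIs and the phosphodiesterase gene *Pde8a* had 56 and 49, all with 8 or fewer in the RPE of either library. At the other end, *Slc38a8*, an amino acid transporter, had 0 UMIs in melanoblasts and 515 and 240 in the RPE, at least 53.3-fold and 30.7-fold lower. *Igfbp7*, an insulin-like growth factor binding protein, had 0 against 406 and 178 UMIs, and the optic cup factor *Lhx2* had 4 and 2 against 564 and 300. *Igfbp7* and *Phyhipl* each overlap a gene on the opposite strand, *Polr2b* and *Fam13c*.

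*Cxcl10*, an interferon-induced chemokine, was the most uneven of these genes. It had 148 UMIs in 18 of 35 control and 29 UMIs in 8 of 26 mutant melanoblasts, none in the RPE, and 9 and 31 UMIs in all other barcodes of each library. At 3000 UMIs it was detected in 23.5% and 15.4% of melanoblasts and in no red blood cell. It lies inside the span of *Art3* (chr5:92331827-92414628) at chr5:92346638-92348889 on the opposite strand. Reads of the 2 genes cannot be told apart if counting ignored strand, and the sources used here do not give the handling of strand or introns. *Art3* was in every typical melanoblast of both libraries, and *Cxcl10* was in 25 of 55. Whether their reads were shared was not tested.

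The second comparison was with crest-derived glia, which share *Sox10* and *Erbb3* with melanoblasts. This class had at least 2 genes of a 5-gene glial panel that included *Fabp7*, *Foxd3* and *Gfra3*, at least 2 of *Sox10*, *Erbb3* and *Cdh19*, and fewer than 2 pigment genes, and held 25 control and 35 mutant barcodes with medians of 13178 and 13636 UMIs. Of 5669 genes, 55 were called higher in melanoblasts (0.970%) and 133 lower (2.35%). The median over all genes was -0.07 and -0.09.

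Melanoblasts shared part of the glial transcript set and had little of the rest. *Ednrb* was at 401 and 414 against 622 and 489.9 CPM. *Insc* was at 179.8 and 169 CPM in glia, near its level in melanoblasts. Of 15 measured Schwann precursor and crest glia genes, 12 were lower and none higher, with medians of -5.28 and -4.01 (control -4.22 with zeros at their bound). Part of that list, *Fabp7* and *Foxd3* included, set the glial class. *Fabp7*, the fatty acid binding protein of glial precursors, was at 44.8 and 55.8 against 853 and 1034 CPM. *Foxd3* had 28 and 17 UMIs against 132 and 183 in the smaller glial class, where it was at 377 and 332 CPM. *Egfl8*, *Moxd1*, *Gap43* and the neurotrophin receptor *Ngfr* were among the genes furthest below glia, each with 18 or fewer UMIs in melanoblasts.

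On the other side were pigment genes, which were lower in glia, a class limited to fewer than 2 pigment panel genes. Of 12 measured melanosome genes, 5 were higher and none lower, with medians of 1.39 and 1.71. *Gpnmb* had 130 and 73 UMIs against 0 and 0, at least 17.9-fold and 19.7-fold higher, and *Pmel* had log2 ratios of 4.16 (3.76 to 4.67) and 5.86 (5.26 to 6.73). *Mitf* and *Bhlhe41*, which encodes a basic helix-loop-helix repressor, were the lineage factors that were higher, with *Mitf* at 39.9 and 7.26 CPM in glia. *Syt4* was higher than in glia too, with log2 ratios of 4.41 and 4.35. So was *Mcoln3*, an endolysosomal cation channel gene, with 104 and 103 UMIs against 1 and 0.

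Against all other passing barcodes together, 378 of 14750 genes were higher (2.56%) and 460 lower (3.12%). *Art3*, with log2 ratios of 8.97 (8.42 to 9.67) and 9.51 (8.85 to 10.37), and *Syt4*, with 8.76 and 8.60, headed the genes ranked by size. *Klhl30*, *Mlph* and the connexin genes *Gjb2* and *Gjc3* followed, with *Mlph* at 6.98 and 7.38. Of 19 melanosome genes 7 were higher and none lower, and of 16 lineage factors 7 were higher and none lower. Of 6 measured signals to melanoblasts, which summed to 129.6 and 109 CPM in other barcodes, *Cxcl12*, the Cxcr4 ligand, made up 91.1 and 77.7 CPM. *Kitl*, the Kit ligand, was at 20.9 and 17.3 CPM, *Edn3*, the Ednrb ligand, at 11.2 and 8.99 CPM and *Nrg1*, an Erbb3 ligand, at 3.86 and 3.16 CPM in other barcodes.

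Cycling was measured as the share of barcodes with a *Mki67* or *Top2a* UMI at 3000 UMIs. It was 26.5% of control melanoblasts (9 of 34, 12.9 to 44.4) and 34.6% of mutant ones (9 of 26, 17.2 to 55.7). The RPE was at 22.3% and 16.8%, glia at 7 of 24 and 7 of 35, retinal ganglion cells, which have left the cycle, at 11.2% and 8.85%, and red blood cells at 6.56% and 4.59%. Unthinned, the melanoblast shares were 68.6% and 69.2%. The melanoblast intervals overlap each other and those of the RPE. The order of the libraries differed between settings. At 1500 UMIs per barcode, 14.7% of control (4.95 to 31.1) and 7.69% of mutant melanoblasts (0.946 to 25.1) had such a UMI. With barcodes limited to 20000 UMIs the shares were 9.09% (1 of 11) and 42.9% (3 of 7). No gene of the S phase or G2/M lists reached 4-fold against the RPE, with G2/M medians of 1.14 and 0.35. None of 7 measured survival genes and none of 9 measured dissociation stress genes reached 4-fold against the RPE either. Over all genes 1.61% were called higher and 5.05% lower against the RPE, so counts of 0 of 7 and 0 of 9 are near the share of all genes.

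The last comparison set mutant against control within melanoblasts. The *Rx* eye field is neuroectoderm and the crest is a separate lineage, and whether the transgene had recombined in these cells was not measured. *Myrf* gave 12 UMIs in control and 4 in mutant melanoblasts; 7 of the 12 were in the 2 control cells with *Otx2*, and without the cells that stood apart it gave 5 and 4 UMIs, a log2 ratio of 0.17 (-2.22 to 2.33). Genes with at least 50 UMIs over both libraries were compared, and a gene was called at 2-fold. Of 3750 genes, 19 were higher (0.507%) and 34 lower (0.907%) in mutant, with a median log2 ratio of -0.06. Among genes that define the cells, *Ednrb* had a ratio of 0.05 (-0.19 to 0.28), *Sox10* of -0.28 (-0.56 to -0.01) and *Dct* of -0.35 (-0.42 to -0.28). Of the 10 gate genes, *Trpm1* was the one called, at -1.30 (-2.45 to -0.42), with 39 UMIs in 14 of 35 control and 12 UMIs in 9 of 26 mutant cells, and it was at -0.75 without the cells that stood apart.

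No melanosome gene of 11 and no lineage factor of 8 reached 2-fold, with medians of -0.29 and -0.34. Over all genes 0.507% were higher and 0.907% lower, so counts of 0 in lists this short are near the share of all genes. All 11 melanosome genes were below 0, against 58.9% of all genes, and without the 6 cells that stood apart 8 of 11 were, at a median of -0.11. *Mitf* was at 239 CPM in control and 141 CPM in mutant, a ratio of -0.76 (-1.13 to -0.41), and at -0.66 among typical cells. *Mitf* was also lower in all other barcodes, at -0.71, but these are a mixture of classes. The RPE class was 3.82% of passing barcodes in control and 1.66% in mutant. Within the RPE class, with barcodes thinned to the same depth, *Mitf* was detected in 26.9% in control and 26.3% in mutant. How far the share of RPE barcodes set the value of -0.71 was not tested. In melanoblasts, *Bhlhe41* was at -0.94, *Tbx2* and *Itga4* at -0.79 and *Mlph* at -0.76, all within 2-fold. *Pmel* was at -0.21, and at -0.02 among typical cells. Whether these are differences of genotype or of library cannot be told apart.

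**Figure D5:**
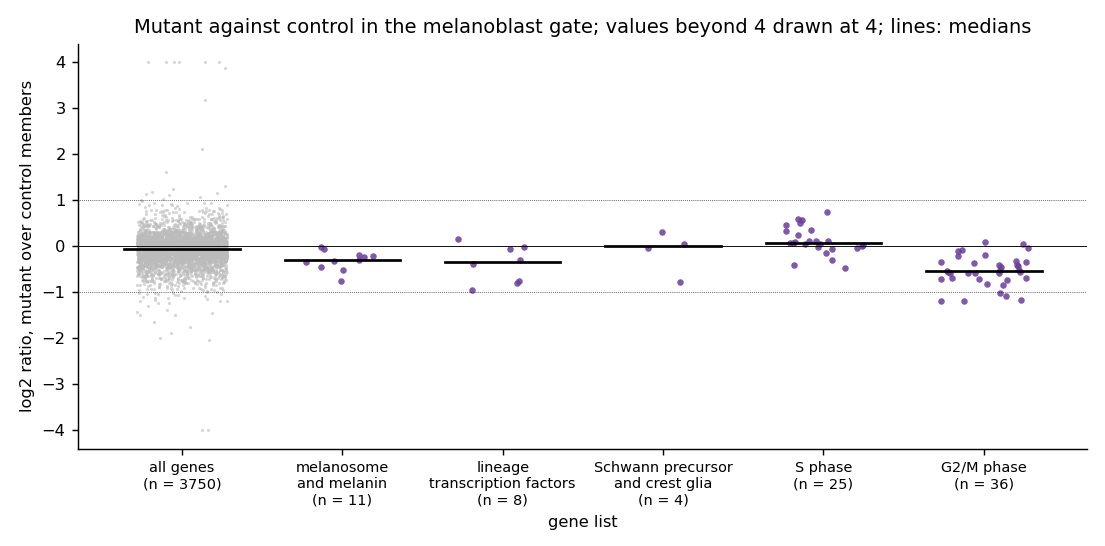
Each point is 1 gene, with the log2 ratio of mutant over control melanoblasts on the vertical axis and gene lists on the horizontal axis; lines are medians and dotted lines mark 2-fold. The G2/M list has a median of -0.54 and the S phase list of 0.08, beside -0.06 for all genes.

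Cell cycle genes differed unevenly. Of 36 measured G2/M genes, 34 were below 0, against 58.9% of all genes, with a median of -0.54. At least 2-fold lower were 5 of the 36, against 0.907% of all genes. These were *Nusap1*, *Cenpf*, *Kif20b*, *Cenpe* and *Top2a*, which serve the spindle, the kinetochore and chromosome decatenation. The 25 S phase genes had a median of 0.08. The median of the G2/M list was -0.53 among typical melanoblasts, -0.20 in all other barcodes and 0.18 in the RPE. Per cell, the G2/M sum was 36.1 UMIs per 10000 at the median (6.34 to 232) in control and 30.4 (5.68 to 225) in mutant. Among typical melanoblasts the medians were 46.4 and 30.9, and 16 of 23 mutant cells lay below the control median. Above the control upper quartile of 119.6 lay 9 of 35 control and 2 of 26 mutant cells. *Prc1*, a cytokinesis protein gene, was at 119 and 36.7 CPM, in 16 of 35 and 5 of 26 cells. A few cells held many of these UMIs. In mutant, 1 cell had 21 of 37 *Nusap1*, 42 of 84 *Cenpf* and 16 of 25 *Prc1* UMIs. In control, the most in 1 cell was 16 of 107, 47 of 240 and 26 of 101. With barcodes limited to 20000 UMIs, *Prc1* and *Nusap1* turned to 0.49 and 0.30. *Prc1* and *Nusap1* each overlap a gene on the opposite strand, *Rccd1* and *Oip5*.

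Single cells set some of the largest ratios. *Ttr* was at -6.14, with 122 of the 175 control UMIs in 1 cell, and at -2.57 without the cells that stood apart, and *Krt18* was at -4.77 and -0.89. All 7 haemoglobin genes were higher in mutant, with a median of 6.48, and 20096 of 22333 mutant haemoglobin UMIs were in 1 cell; without those cells the median was 0.72. *Cxcl10* was at -1.99 (-2.66 to -1.45), and at -2.03 among typical cells, with up to 37 UMIs in 1 control cell. Among the genes with the largest ratios in the other direction, *Tfdp1*, a partner of the E2F factors, was called, at 1.24 (0.64 to 1.89) and at 1.31 without the cells that stood apart, with 35 UMIs in 18 of 35 control and 67 UMIs in 22 of 26 mutant cells. *Cdkn1c*, a cyclin-dependent kinase inhibitor gene, was not called, at 0.90 (0.50 to 1.31) with 60 of 129 mutant UMIs in 1 cell, and was at 0.61 without the cells that stood apart. *Mgst3*, a glutathione enzyme gene, was at 0.95 with 29 of 78 mutant UMIs in 1 cell, and at 0.46 (-0.15 to 1.08) without them. *Acot1*, an acyl-CoA thioesterase gene with close paralogs, was at 0.93 and 0.96, also within 2-fold.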

How the data were processed

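The 2 libraries, 1 per genotype, were 10x 3′ libraries, and the authors deposited UMI counts per gene and barcode on mm10 without normalization. The submitters' processing notes name Cell Ranger 7.1.0 and Seurat 4.1.1, while the deposited count headers give software version 3.0.0. The melanoblast gate, the classes and all gene lists were chosen with earlier results of these data known. Counts were summed per class and library in Python 3.11.15 with scipy 1.17.1 and given as CPM. Log2 ratios had 1 UMI added, with exact conditional binomial intervals; sums had exact Poisson and shares exact Clopper-Pearson intervals, all 95% and for counting error only. A class comparison needed 20 UMIs per gene in each library, a genotype comparison 50 UMIs in all. A count of 0 was set at a floor of 3 UMIs for bounds. Genes were named from the lists and, with at least 100 UMIs and outside haemoglobin, mitochondrial and ribosomal protein genes, by size of the ratio (for classes, the one nearer 0 of both libraries). Scrublet (scanpy 1.11.5, 5% doublets expected) marked doublets per library, and marked barcodes were kept. The methods' upper limit of 2000 UMIs was an alternative only, since it left 1 melanoblast. Gene positions came from GENCODE vM21 by gene ID, promoter windows from RefSeq. Scripts were tested on simulated data. Some genes of the glial panel are not reported here.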

Additional observations from a re-analysis of the deposited data

Results flagged for a closer look

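*Cxcl10* was singled out because its ratio ran opposite ways in different cells of the same libraries. The log2 ratio of mutant over control was -1.99 in melanoblasts and 1.42 in all other passing barcodes, where it rested on 9 and 31 UMIs. The difference was not tested, since there was 1 library per genotype.

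The G2/M list was singled out for the same reason. Its median was -0.54 in melanoblasts and 0.18 in the RPE, and this difference was not tested either.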

How the results depend on the processing

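Of 2109 values recomputed for 189 results under 17 settings, 1931 were labeled the same, 174 moved and 4 reversed. Some settings could change little, so the total is no measure of stability. Leaving out Scrublet-marked barcodes removed no melanoblast, and all 189 values were the same. A minimum of 100 UMIs changed which genes were measured and no gene's ratio, and 177 values were the same. The same meant inside the main counting interval, or near the main value for counts and list medians. A reversal was recorded only where the main ratio was at least 4-fold between classes or 2-fold between genotypes. Smaller ratios could thus change sign and be labeled the same or moved. The melanoblast share was 0.257% and 0.130% (control, mutant) under a limit of 20000 UMIs, 0.0836% and 0% under 2000 UMIs, and 0.334% and 0.139% when gated after thinning. The limit of 2000 UMIs left no class, genotype or cycling value. Against the RPE, 55 genes were higher and 58 lower under 20000 UMIs, 44 and 134 with at least 100 UMIs per gene, and 252 lower at 5% mitochondrial UMIs. Against glia these were 30 and 42, then 20 and 34. For mutant against control, 11 were higher and 16 lower under 20000 UMIs and 7 and 11 with at least 100 UMIs; 22 were lower with 3 genes of each panel and 54 with a mean of CPM per barcode. Cycling in control was 9.09% under 20000 UMIs, 68.6% unthinned and 91.2% by 3 G2/M UMIs, and in mutant 7.69% thinned to 1500 UMIs, 69.2% unthinned and 84.6% by G2/M UMIs. For mutant against control, *Nusap1* (0.30) and *Prc1* (0.49) turned positive under 20000 UMIs; *Myrf* did so without cells holding 2 optic cup genes (0.175) and without the 6 cells that stood apart (0.172), a setting chosen after seeing the data. The causes were not tested. No paired analysis was possible because each genotype had 1 library, and no library could be left out. Calls rest on 61 cells at their depth, and no other source of spread was measured.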
